A study of Pseudozyma hubeiensis with 12 samples.

Results

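Nucleotide synthesis and DNA replication genes of Pseudozyma hubeiensis were followed from exponential growth into nitrogen starvation on glucose and on xylose. A locus was a member when its gene name began with ade, ura, imd, gua, rnr, mcm, orc, rfc or rfa and a digit, or when its annotated product named a DNA polymerase, DNA replication, a replication factor, origin recognition, ribonucleoside-diphosphate reductase or DNA primase. The gene name found 37 loci and the product 43, with 16 found by both, so 64 of the 6689 loci in the table were members. Of these, 60 had enough reads to be tested. The yeast, a basidiomycete, was the strain BOT-O in every group. It grew in YNB medium with ammonium sulfate as the limiting nitrogen source and either glucose or xylose as the sugar, with 80 g of carbon per g of nitrogen at the start. RNA was taken at time point 1, in exponential growth, and at time point 2, in nitrogen starvation, which gave 4 groups and 12 libraries, with biological replicates lettered A to C in each group of 3. Starvation and the later time point coincide in this design and cannot be told apart. The comparisons ask how the transcripts differ between the growth phases on each sugar, and between the sugars in each phase.

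Cells build purine and pyrimidine nucleotides from amino acids, carbon dioxide and ribose phosphate, so nitrogen enters both pathways at several steps. Ribonucleotide reductase turns ribonucleotides into the deoxyribonucleotides that DNA needs. Replication starts where the origin recognition complex loads the MCM helicase, which becomes active with Cdc45 and the GINS complex. DNA polymerase alpha with primase then lays down primers, the replication factor C clamp loader places the sliding clamp, and polymerases delta and epsilon copy the strands. In budding yeast many of these genes are transcribed mainly around the start of S phase. Roles given below are those known from Saccharomyces cerevisiae unless another organism is named, since the gene names in the table are of that kind.

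The libraries held 15130232 to 32374467 counts, and the 3 starved glucose libraries were the shallowest, with 16894818 or fewer. Members received between 107084 and 430672 counts per library. The members ade13_2, rfa1 and rfc4 were listed at 0 in all 12 libraries, as were 615 loci of the whole table, and a further member, PHBOTO_003536 (a DNA-directed DNA polymerase by its product), stayed below the count minimum. Levels are given as CPM, the count scaled to a library of 1000000 after TMM scaling, which sets libraries to a common scale, in the order of replicates A, B and C. They compare libraries for 1 gene, not genes with each other, because transcript lengths were not used here. Loci that share a name but for a suffix, such as ura6_2 and mcm6_2, may share reads with their partner, so their separate levels are uncertain. In bulk RNA, fewer cells in S phase and less RNA per cell cannot be told apart. P-values rest on the spread between libraries labelled as biological replicates, pooled over all 4 groups. That spread was unequal. A chi-square value for each pair of replicates, divided by its degrees of freedom, was 11.5 to 22.4 in exponential groups. In starved groups it was 41.4 to 97. A pooled spread may thus be too wide for the comparison of sugars in growth and too narrow for that in starvation.

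In starvation on glucose 41 of the 60 tested members fell and 6 rose at an adjusted p under 0.05 (edgeR quasi-likelihood test, Benjamini-Hochberg over all 5805 tested loci). Of all tested loci, 41.1% were lower and 40.1% higher in that comparison. On xylose 37 members fell and 10 rose, against 40.6% of all tested loci lower and 40.6% higher. With library totals in place of TMM 43 fell and 5 rose on glucose, and 44 fell and 6 rose on xylose. The median member changed by -0.79 on the log2 scale on glucose and by -0.54 on xylose, while the median of all tested loci was -0.02 and 0.00. At least a 2-fold change was seen for 31 of the called members on glucose, 29 of them lower, and for 23 on xylose, 21 of them lower. Over all 5805 tested loci 2587 were called with such a change on glucose, 1282 of them lower. On xylose there were 2539, with 1174 of them lower. Of the members, 35 fell on both sugars and 4 rose on both: ura6_2, mcm5, rev3 and PHBOTO_000315. The share of all tested loci called the same way on both sugars is not given here, so these counts cannot be set against it. The authors' deposited table called 48 members on glucose and 47 on xylose at the same threshold. Across the 60 members the 2 starvation changes had a Pearson correlation of 0.87, and 0.93 across 59 without PHBOTO_000204, a locus with very few reads. The same correlation over all 5805 tested loci was 0.88, and genes are not independent replicates.

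**Figure D1:**
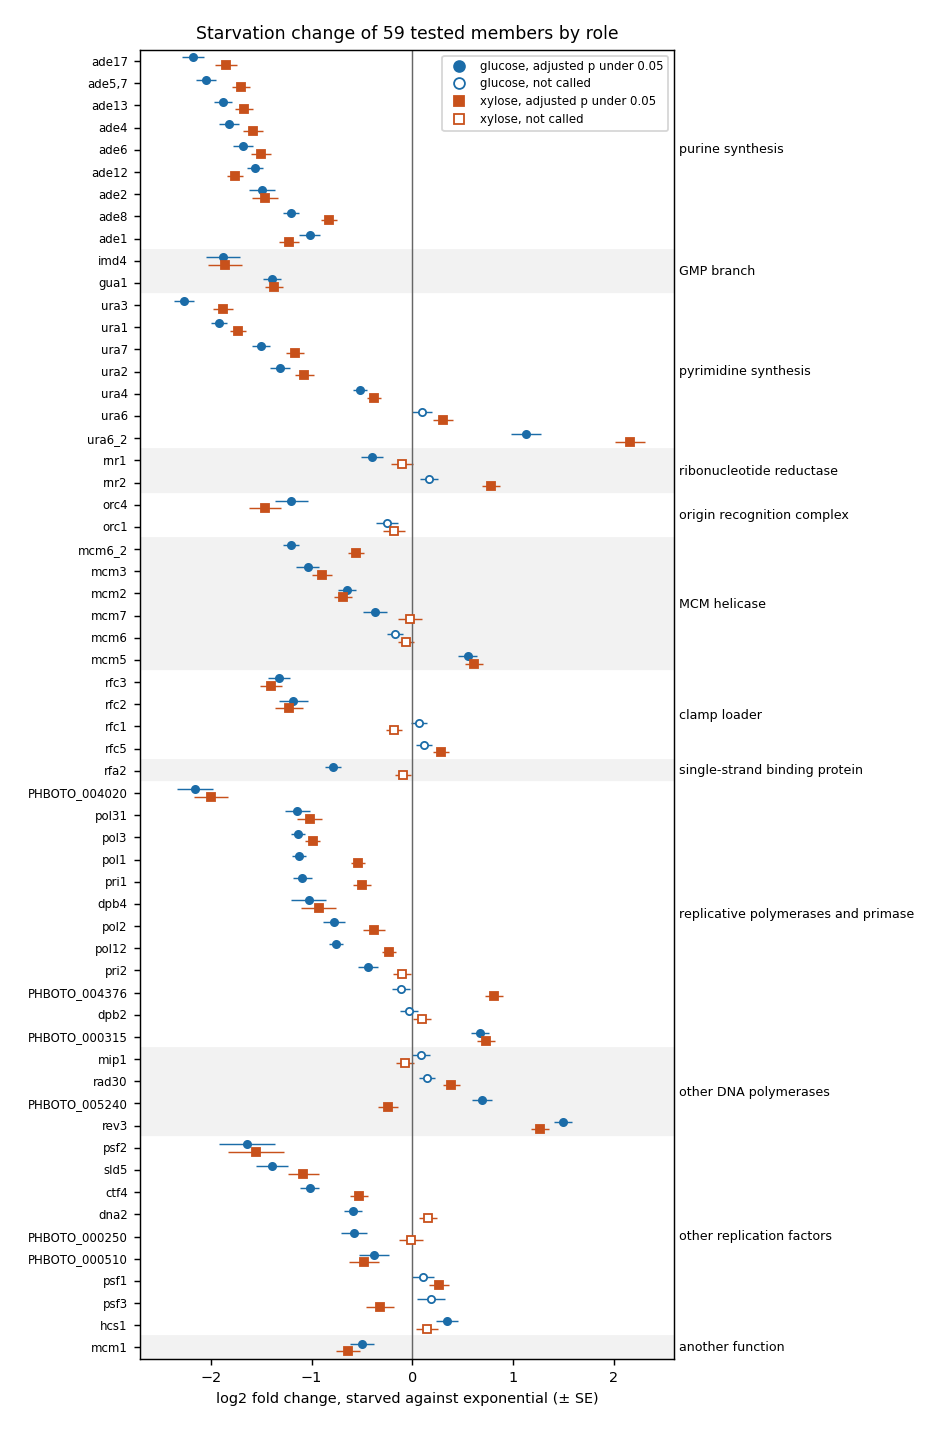
Log2 fold change of starved against exponential libraries (horizontal axis, ± SE) for 59 tested members grouped by role, with circles for glucose and squares for xylose. Filled symbols mark an adjusted p under 0.05. The ade, imd4 and gua1 genes all lie below 0 on both sugars, while the replication roles hold values on both sides of 0. PHBOTO_000204, which had very few reads, is not drawn.

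The depth of the fall differed between roles. The 20 tested members of nucleotide supply (purine, GMP, pyrimidine and ribonucleotide reductase genes) had a median change of -1.49 on glucose, with 17 lower and 1 higher. On xylose their median was -1.42, with 16 lower and 3 higher. The 35 tested members of replication roles had a median of -0.65 on glucose, with 23 lower and 3 higher, and of -0.38 on xylose, with 19 lower and 5 higher. Of all tested loci, 41.1% were lower and 40.1% higher on glucose, and 40.6% each way on xylose. The counts of single roles below are to be read beside these shares. Counts of all 64 members made up 1.34% ± 0.0383 (SD, n = 3) of a library in exponential growth on glucose and 0.665% ± 0.0371 in starvation. On xylose the share was 1.33% ± 0.0226 and 0.731% ± 0.0173. The starved libraries all lay below the exponential ones, at 0.643% to 0.748% against 1.30% to 1.38%. Replication roles went from 0.383% ± 0.00536 to 0.243% ± 0.0221 on glucose and from 0.407% ± 0.00595 to 0.295% ± 0.0142 on xylose.

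**Figure D2:**
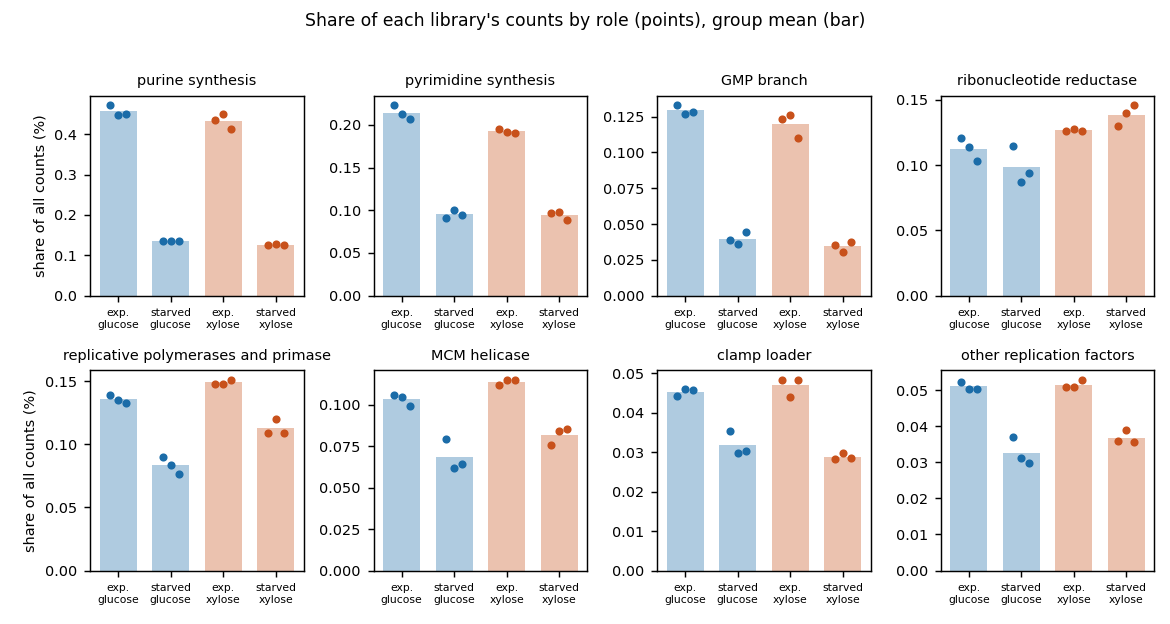
Share of each library's counts (vertical axis, percent, each panel with its own scale from 0) taken by 8 roles, with a point per library and a bar for the mean of 3. Purine synthesis goes from 0.457% to 0.136% on glucose and from 0.433% to 0.126% on xylose, whereas ribonucleotide reductase holds 0.0986% in starved glucose and 0.139% in starved xylose against 0.113% and 0.127% in exponential growth.

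Purine synthesis fell as a whole. All 9 tested ade genes fell on both sugars, from -2.18 to -1.02 on the log2 scale on glucose (median -1.68) and from -1.85 to -0.83 on xylose (median -1.58). They span the pathway from ade4, the amidophosphoribosyltransferase of the first committed step (-1.82 and -1.58), to IMP and on to AMP. The gene ade17, the bifunctional enzyme that closes the ring to give IMP, stood at 333, 297 and 287 CPM in exponential glucose libraries and at 58.5, 75.9 and 67.8 in starved ones. On xylose its levels were 297, 305 and 270 CPM in growth and 81.3, 88.4 and 73.0 in starvation. Every starved library was far below every exponential one on both sugars. Its change of -2.18 ± 0.11 (SE) on glucose had an adjusted p of 1.35e-11, and the xylose change of -1.85 ± 0.11 an adjusted p of 9.16e-11. Of all tested loci, 5.77% changed by as much or further downward on glucose.

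The bifunctional ade5,7 acts in the early ring-building steps and stood at 712, 665 and 631 CPM in exponential glucose and 149, 155 and 179 in starved glucose libraries. Exponential xylose libraries held 605, 624 and 561 CPM and starved ones 199, 171 and 181. Growth and starvation did not overlap on either sugar, and the change was -2.05 ± 0.10 on glucose (adjusted p = 6.66e-12) and -1.70 ± 0.09 on xylose (adjusted p = 6.07e-11). The AMP branch enzyme ade12, adenylosuccinate synthetase, read 1168, 1173 and 1204 CPM in exponential glucose, 388, 395 and 422 in starved glucose, 1236, 1315 and 1151 in exponential xylose, and 371, 347 and 376 in starved xylose. Growth and starvation did not overlap, and its fall was 2.94-fold on glucose and 3.39-fold on xylose (adjusted p = 3.59e-11 and 8.97e-12). Adenylosuccinate lyase, ade13, which serves both the ring-building path and the AMP branch, was at 472, 431 and 443 CPM in exponential glucose and 130, 126 and 111 in starved glucose. On xylose it was at 376, 382 and 363, then at 124, 124 and 104. It fell by 1.88 and 1.67 on the log2 scale (adjusted p = 1.06e-11 and 4.43e-11), and its growing libraries were lower on xylose than on glucose without overlap. The smallest falls of the role were those of ade1 on glucose (-1.02 ± 0.10) and of ade8 on xylose (-0.83 ± 0.08), which add single steps to the growing ring.

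Both GMP branch genes fell on both sugars. IMP dehydrogenase, imd4, opens the branch and stood at 590, 563 and 571 CPM in exponential glucose and at 136, 127 and 206 in starved glucose. In xylose libraries it was at 522, 601 and 457 in growth and at 140, 117 and 178 in starvation. Replicates of imd4 spread widely, with C the highest in both starved groups, yet growth and starvation did not overlap. The change was -1.88 ± 0.17 on glucose and -1.86 ± 0.17 on xylose (adjusted p = 4.02e-08 and 4.65e-08). GMP synthase, gua1, which uses glutamine as its nitrogen donor, went from 665, 643 and 645 CPM to 239, 245 and 260 on glucose and from 653, 608 and 578 to 263, 209 and 239 on xylose. These are falls of 2.63-fold and 2.59-fold (adjusted p = 4.83e-10 and 5.95e-10).

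Of the 7 pyrimidine genes, 5 fell on both sugars, and the 2 annotated as uridylate kinases did not fall. The median change was -1.31 on glucose and -1.07 on xylose. Orotidine 5'-phosphate decarboxylase, ura3, makes UMP and had the deepest fall of all members on glucose. It read 294, 310 and 296 CPM in exponential glucose and 63.7, 57.0 and 65.9 in starved glucose libraries. Xylose libraries held 297, 255 and 268 CPM in growth and 84.3, 68.1 and 70.2 in starvation. The groups of each sugar were far apart, with a change of -2.27 ± 0.10 on glucose and -1.88 ± 0.10 on xylose (adjusted p = 2.86e-12 and 2.36e-11). The gene ura2, whose product starts the pathway, had levels of 568, 502 and 466 CPM in exponential glucose, 188, 205 and 226 in starved glucose, 448, 476 and 435 in exponential xylose, and 218, 199 and 228 in starved xylose, and it fell by 1.31 and 1.07 on the log2 scale (adjusted p = 2.02e-09 and 2.37e-08). Dihydroorotate dehydrogenase, ura1, fell by 1.92 and 1.73, and CTP synthase, ura7, by 1.50 and 1.16. Dihydroorotase, ura4, fell least, by 0.52 on glucose and 0.38 on xylose.

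The uridylate kinase copy ura6_2, whose kind of enzyme phosphorylates UMP from both synthesis and salvage, moved the other way. It stood at 41.1, 47.2 and 42.5 CPM in exponential glucose and at 79.8, 103 and 102 in starved glucose. On xylose it was at 27.1, 18.6 and 23.3 CPM in growth and at 124, 94.2 and 90.1 in starvation. Starved libraries were above growing ones on both sugars, and exponential xylose libraries were the lowest of all. It rose by 1.13 ± 0.15 on glucose (adjusted p = 3e-06) and by 2.16 ± 0.15 on xylose (adjusted p = 1.54e-09). The partner copy ura6 was nearly level on glucose, with a mean of 186 CPM in growth and 199 in starvation (0.10 ± 0.10, adjusted p = 0.396). On xylose ura6 rose by 0.31 ± 0.10 (adjusted p = 0.0124), a call that library totals did not give (0.09, adjusted p = 0.425) and that was lost without starved xylose replicate A or B (adjusted p up to 0.0777).

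The ribonucleotide reductase chains differed from each other, and neither reached a 2-fold change. The large chain rnr1 stood at 609, 560 and 516 CPM in exponential glucose and 477, 362 and 439 in starved glucose. On xylose it was at 673, 711 and 668 CPM in growth and at 573, 648 and 699 in starvation. It fell on glucose by 0.40 ± 0.11 (adjusted p = 0.00274), and on xylose growth and starvation overlapped (-0.10 ± 0.11, adjusted p = 0.419). With library totals rnr1 was called lower on xylose as well (-0.31, adjusted p = 0.0204). The small chain rnr2 read 536, 523 and 458 CPM in exponential and 635, 524 and 547 in starved glucose libraries, which overlapped (0.17 ± 0.09, adjusted p = 0.0953). It was called higher there with a DESeq2 Wald test (0.19, adjusted p = 0.0375) and without starved glucose replicate B (0.25, adjusted p = 0.0326). The authors' deposited table also called rnr2 higher on glucose (adjusted p = 0.0369), the only starvation call of a member that differed from those here. In xylose libraries rnr2 was at 525, 510 and 515 CPM in growth and at 900, 843 and 916 in starvation. There it rose 1.72-fold (adjusted p = 7.58e-07), with all 3 starved xylose libraries above the other 9. The difference between the rnr2 changes on the 2 sugars was itself called, at 0.61 ± 0.13 (adjusted p = 0.00172).

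Of the origin recognition complex, which marks replication origins, subunits 1 and 4 were members. The orc4 gene stood at 26.7, 25.4 and 25.0 CPM in exponential glucose and 10.2, 8.58 and 14.9 in starved glucose, and at 33.4, 32.5 and 33.8 against 10.7, 12.9 and 12.6 on xylose. Starved libraries were below growing ones throughout, by 1.20 ± 0.16 on the log2 scale on glucose and 1.46 ± 0.16 on xylose (adjusted p = 4.13e-06 and 3.2e-07). For orc1 the groups overlapped. It read 59.8, 55.5 and 58.3 CPM in growth and 42.8, 58.1 and 45.2 in starvation on glucose, and 56.8, 60.0 and 61.4 against 51.7, 58.3 and 47.9 on xylose. Its changes of -0.25 ± 0.11 and -0.18 ± 0.11 were not called (adjusted p = 0.0543 and 0.16), though without starved glucose replicate B the glucose change was -0.37 (adjusted p = 0.00361). With library totals in place of TMM orc1 was called lower on both sugars (adjusted p = 0.0143 and 0.00655).

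The MCM helicase genes did not move together, although their products work as a hexamer. Loci named for MCM2, MCM3, MCM5, MCM7 and MCM6, the last with 2 loci, were members. Not every subunit of the hexamer had a member of its name. On glucose 4 of the 6 fell and mcm5 rose, and on xylose 3 fell and mcm5 rose. Over all tested loci 41.1% fell and 40.1% rose on glucose, and 40.6% went each way on xylose. With 6 loci these counts cannot set the role apart from those shares. The deepest fall on xylose was that of mcm3, which stood at 136, 132 and 125 CPM in exponential glucose, 72.8, 59.0 and 59.1 in starved glucose, 147, 170 and 157 in exponential xylose, and 73.5, 86.4 and 93.1 in starved xylose. It was lower in starvation without overlap, by 1.04 ± 0.11 and 0.90 ± 0.10 on the log2 scale (adjusted p = 1.28e-07 and 6.23e-07). By contrast mcm5 read 111, 113 and 107 CPM in exponential glucose and 182, 149 and 155 in starved glucose, then 113, 112 and 111 against 169, 160 and 183 on xylose. Every starved library was above every growing one, and mcm5 rose by 0.55 ± 0.09 and 0.61 ± 0.09 (adjusted p = 1.89e-05 and 6.33e-06).

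The locus mcm6_2, annotated as a putative MCM6, stood at 310, 332 and 311 CPM in exponential glucose and 148, 133 and 133 in starved glucose. Whether it is a copy of mcm6 or another MCM subunit was not tested. Xylose libraries held 346, 350 and 332 CPM in growth and 218, 243 and 237 in starvation. It fell by 1.20 ± 0.08 on glucose and 0.56 ± 0.08 on xylose on the log2 scale (adjusted p = 4.29e-10 and 4.2e-06), and the starved libraries of the 2 sugars did not overlap. The other locus annotated as MCM6, mcm6, was nearly level, at mean levels of 144 and 128 CPM on glucose and 163 and 156 on xylose (adjusted p = 0.0598 and 0.47). With library totals it was called lower on both sugars (-0.26 and -0.28, adjusted p = 0.00771 and 0.00516). The mcm2 gene fell by 0.65 and 0.69 on the log2 scale. For mcm7 the fall of 0.37 ± 0.12 on glucose (adjusted p = 0.0094) came with groups that overlapped, at 183, 176 and 165 CPM against 168, 109 and 130. Leaving out 1 library in turn moved it between -0.55 and -0.21, and the call was lost without starved glucose replicate B (adjusted p = 0.0802). On xylose its mean was 177 CPM in growth and 174 in starvation (adjusted p = 0.862).

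**Figure D3:**
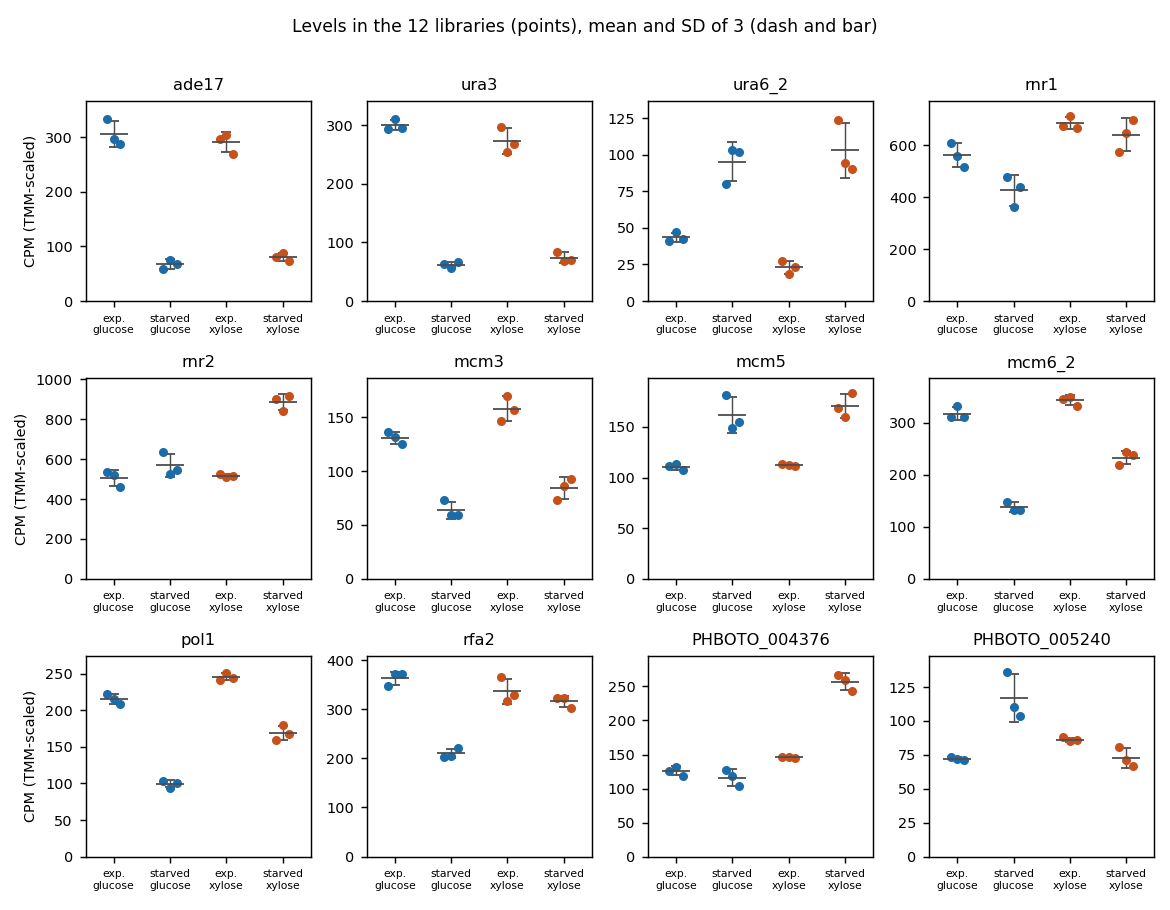
Levels of 12 members in the 12 libraries (vertical axis, CPM after TMM scaling, each panel with its own scale from 0), with a point per library and a dash and bar for the mean and SD of 3. The panels of ade17 and ura3 show low starved libraries on both sugars, those of mcm5 and ura6_2 show high ones, and PHBOTO_004376 is high only in the 3 starved xylose libraries, at 243 to 267 CPM.

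Clamp loader subunits also differed among themselves. Subunits 2 and 3 fell on both sugars, while subunits 1 and 5 did not fall at the threshold on either, and subunit 4 (rfc4) was listed at 0. The rfc3 gene went from 90.2, 96.5 and 94.0 CPM to 43.7, 35.0 and 33.6 on glucose and from 106, 90.7 and 99.7 to 35.9, 40.5 and 36.1 on xylose. Its falls were 1.32 ± 0.11 and 1.40 ± 0.11 on the log2 scale, without overlap (adjusted p = 7.16e-09 and 3.28e-09). The rfc2 gene stood at 116, 121 and 120 CPM in exponential and 70.7, 44.1 and 42.8 in starved glucose libraries, with replicate A the highest of the latter, and at 138, 133 and 141 against 59.5, 58.3 and 58.7 on xylose. It fell by 1.18 and 1.22 (adjusted p = 8.66e-07 and 5.01e-07). The rfc5 gene read 116, 122 and 117 CPM against 135, 118 and 133 on glucose, which overlapped (0.12 ± 0.08, adjusted p = 0.163; without starved glucose replicate B 0.21 and adjusted p = 0.0285). On xylose it read 117, 104 and 111 against 140, 132 and 133 and rose by 0.29 ± 0.08 (adjusted p = 0.00313). That rise was not called with library totals (0.08, adjusted p = 0.423). The large subunit rfc1 changed by 0.07 on glucose and -0.18 on xylose (adjusted p = 0.409 and 0.0525), and with library totals these were -0.02 and -0.40 (adjusted p = 0.808 and 0.000339).

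Of replication protein A, the complex that coats single-stranded DNA, the second subunit rfa2 could be measured and rfa1 was listed at 0. The rfa2 gene stood at 348, 371 and 371 CPM in exponential glucose and at 203, 205 and 221 in starved glucose libraries. On xylose it was at 365, 316 and 329 CPM in growth and 322, 323 and 303 in starvation. The starved glucose libraries lay below the other 9, and growth and starvation overlapped on xylose. The gene fell 1.73-fold on glucose (adjusted p = 9.29e-08), the xylose change was -0.09 ± 0.08 (adjusted p = 0.285), and the difference between the changes was 0.70 ± 0.11 (adjusted p = 0.000166). With library totals the xylose change was -0.31 (adjusted p = 0.00215).

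Among the 13 replicative polymerase and primase loci, 9 fell and 1 rose on glucose, and 8 fell and 2 rose on xylose, with medians of -0.78 and -0.50. Over all tested loci 41.1% fell and 40.1% rose on glucose, and 40.6% went each way on xylose. The deepest falls were those of polymerase delta, which copies the lagging strand. PHBOTO_004020, annotated as a possible delta subunit, stood at 58.4, 56.0 and 58.3 CPM in exponential glucose and 8.44, 15.4 and 14.7 in starved glucose, and at 59.3, 70.2 and 67.0 against 13.9, 19.5 and 15.4 on xylose. It was lower by 4.48-fold and 4.01-fold (adjusted p = 9.02e-09 and 1.56e-08). The small subunit pol31 went from 36.8, 36.8 and 38.7 CPM to 15.3, 15.5 and 20.1 on glucose and from 37.1, 39.1 and 35.8 to a mean of 18.4 on xylose (falls of 1.14 and 1.02 on the log2 scale, adjusted p = 2.24e-07 and 6.93e-07). The catalytic subunit pol3 fell by nearly the same, 1.13 ± 0.07 and 0.99 ± 0.07. Another locus of the enzyme went the other way. PHBOTO_000315, annotated as subunit 4, an accessory subunit known from fission yeast and mammals, read 88.1, 88.6 and 96.3 CPM against 136, 164 and 135 on glucose and 94.8, 89.3 and 87.8 against 154, 151 and 145 on xylose. It rose 1.59-fold and 1.66-fold (adjusted p = 2.66e-06 and 9.93e-07).

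Polymerase epsilon, which copies the leading strand, had 3 members. Its catalytic subunit pol2 fell by 0.78 ± 0.11 on glucose and 0.38 ± 0.11 on xylose (adjusted p = 4.43e-06 and 0.00324). Subunit D, dpb4, fell by 1.03 ± 0.17 and 0.93 ± 0.17 (adjusted p = 3.26e-05 and 8.78e-05). Subunit B, dpb2, stayed near its level in growth, with means of 74.6 and 73.0 CPM on glucose and 76.6 and 82.4 on xylose (adjusted p = 0.747 and 0.271).

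In the polymerase alpha-primase complex, which makes the primers, all 4 named subunits fell on glucose, and 3 of them fell on xylose by less. Its catalytic subunit pol1 stood at 223, 216 and 209 CPM in exponential glucose and 104, 94.4 and 100 in starved glucose libraries. In xylose libraries it was at 242, 251 and 245 CPM in growth and at 159, 180 and 168 in starvation. The starved groups of the 2 sugars did not overlap, and pol1 fell by 1.12 ± 0.07 on glucose and 0.54 ± 0.07 on xylose (adjusted p = 6.68e-10 and 4.23e-06). The B subunit pol12 read 109, 101 and 106 CPM against 64.7, 60.9 and 60.8 on glucose and 111, 113 and 110 against 93.1, 98.9 and 91.8 on xylose. Its falls were 1.69-fold and 1.17-fold (adjusted p = 8.11e-08 and 0.00808). The primase large subunit pri2 stood at 125, 113 and 104 CPM against 92.1, 80.7 and 79.4 on glucose, and at 136, 131 and 143 against 122, 142 and 120 on xylose, where the groups overlapped. It fell by 0.44 ± 0.10 on glucose (adjusted p = 0.000486) and changed by -0.10 ± 0.09 on xylose (adjusted p = 0.36; with library totals -0.31 and adjusted p = 0.0165). The small subunit pri1, which holds the primase active site, fell by 1.09 ± 0.09 and 0.50 ± 0.09.

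A further locus with the product "Alpha DNA polymerase", PHBOTO_004376, followed another course from pol1. It stood at 126, 132 and 119 CPM in exponential glucose, 127, 119 and 103 in starved glucose, 146, 147 and 145 in exponential xylose, and 267, 260 and 243 in starved xylose. On glucose the groups overlapped (-0.11 ± 0.09, adjusted p = 0.241), and on xylose the locus rose 1.76-fold (adjusted p = 1.92e-07). The locus PHBOTO_000204, annotated as a B subunit of polymerase alpha, had between 0 and 24 reads per library and was not called in any comparison.

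DNA polymerases other than alpha, delta and epsilon did not fall as a group. On glucose 2 of 4 tested loci rose and none fell at the threshold, and on xylose 2 rose and 1 fell. Of all tested loci, 40.1% rose and 41.1% fell on glucose, and 40.6% went each way on xylose. With 4 loci these counts cannot set the role apart from those shares. The catalytic subunit of the translesion polymerase zeta, rev3, stood at 38.7, 38.0 and 32.7 CPM in exponential glucose and at 103, 110 and 97.3 in starved glucose, then at 34.9, 35.0 and 40.2 against 88.2, 89.4 and 88.3 on xylose. Starved libraries were far above growing ones on both sugars, and rev3 rose 2.83-fold and 2.42-fold (adjusted p = 2.88e-10 and 2.23e-09). Of all tested loci, 84.4% lay at or below its glucose change. The mitochondrial polymerase gamma, mip1, was not called on either sugar, at 128, 130 and 123 CPM against 135, 137 and 132 on glucose and 134, 136 and 137 against 131, 111 and 146 on xylose (adjusted p = 0.377 and 0.449). With library totals mip1 was called lower on xylose (-0.29, adjusted p = 0.00673). The translesion polymerase eta, rad30, went from a mean of 86.2 to 95.9 CPM on glucose (adjusted p = 0.0913). On xylose it rose from 75.5 to 98.6 CPM (adjusted p = 0.000361), which was not called with library totals (adjusted p = 0.0638).

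PHBOTO_005240, annotated as polymerase kappa, a translesion enzyme studied in mammals, was the member called in opposite directions on the 2 sugars. It stood at 73.3, 72.0 and 71.2 CPM in exponential glucose and at 136, 110 and 104 in starved glucose, without overlap. On xylose it was at 87.9, 84.9 and 86.1 CPM in growth and at 80.9, 71.2 and 66.7 in starvation, also without overlap. The rise on glucose was 0.69 ± 0.10 (adjusted p = 1.03e-05) and the fall on xylose 0.24 ± 0.10 (adjusted p = 0.036). The xylose fall of PHBOTO_005240 was not called without any of the 3 exponential xylose libraries in turn, or without starved xylose replicate B or C (adjusted p up to 0.143). The difference between the changes was -0.94 ± 0.14 (adjusted p = 0.000136) and was called whichever of the 12 libraries was left out.

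Other replication factors fell in part. Of 9 loci, 6 fell and 1 rose on glucose, and 5 fell and 1 rose on xylose. Over all tested loci 41.1% fell and 40.1% rose on glucose, and 40.6% went each way on xylose. With 9 loci the falls cannot be set apart from those shares. The 4 named subunits of GINS, the complex that activates the MCM helicase, differed among themselves. The psf2 gene stood at 36.4, 32.9 and 36.5 CPM in exponential glucose and 19.3, 6.95 and 7.87 in starved glucose, where replicate A was well above the others, and at 35.0, 36.2 and 38.7 against 12.2, 16.1 and 9.17 on xylose. It was lower by 1.64 ± 0.28 on glucose and 1.55 ± 0.28 on xylose on the log2 scale (adjusted p = 5.53e-05 and 7.24e-05). Without starved glucose replicate A the glucose change of psf2 was -2.25, and over all leave-outs it ran from -2.25 to -1.36. The sld5 gene went from 45.7, 44.3 and 43.6 CPM to 12.4, 22.5 and 15.9 on glucose and from 45.5, 42.3 and 42.1 to between 19.9 and 21.9 on xylose, falls of 1.39 and 1.08 on the log2 scale (adjusted p = 4.34e-07 and 6.53e-06). The psf1 gene had means of 29.9 and 32.4 CPM on glucose (adjusted p = 0.326) and 31.5 and 37.9 on xylose. Its rise on xylose (0.27 ± 0.10, adjusted p = 0.0266) was not called with library totals (0.05, adjusted p = 0.687) or without exponential xylose replicate A or B or starved xylose replicate A or C (adjusted p up to 0.136).

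The GINS product PSF3 was given to neighbouring locus numbers, psf3 and PHBOTO_000510, both of low level. On glucose psf3 read 29.5, 31.7 and 32.7 CPM against 45.4, 33.8 and 27.5 (adjusted p = 0.236), and PHBOTO_000510 read 28.2, 27.0 and 29.7 against 28.4, 19.9 and 17.1 (-0.38 ± 0.15, adjusted p = 0.0317). In both loci starved glucose replicate A was the highest of its group. The glucose fall of PHBOTO_000510 was lost without starved glucose replicate B or C or exponential glucose replicate A or C (adjusted p up to 0.147). On xylose the changes were -0.32 ± 0.14 and -0.48 ± 0.15 (adjusted p = 0.0477 and 0.00741), and that of psf3 was lost in 9 of 12 such fits (adjusted p up to 0.133).

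Several of the remaining factors changed differently on the 2 sugars. The polymerase alpha-binding protein ctf4, which ties the helicase to polymerase alpha, stood at 126, 123 and 120 CPM in exponential glucose, 55.3, 57.5 and 69.3 in starved glucose, 125, 141 and 130 in exponential xylose, and 86.1, 91.9 and 95.0 in starved xylose. It fell 2.02-fold on glucose and 1.45-fold on xylose (adjusted p = 3.17e-08 and 4.55e-05). The helicase-nuclease dna2, which trims Okazaki fragments, read 90.8, 88.4 and 83.2 CPM against 59.6, 52.4 and 62.4 on glucose and 77.9, 79.9 and 82.9 against 95.3, 88.7 and 84.7 on xylose. It fell by 0.59 ± 0.09 on glucose (adjusted p = 1e-05), while its xylose change of 0.16 ± 0.09 was not called (adjusted p = 0.0996) and was -0.06 with library totals. The SLD2 locus PHBOTO_000250, an initiation factor, fell by 0.58 ± 0.13 on glucose and changed by -0.01 ± 0.12 on xylose (adjusted p = 0.000471 and 0.925). The polymerase alpha-associated helicase hcs1 rose by 0.35 ± 0.11 on glucose (adjusted p = 0.00674), a call not made with library totals (0.25, adjusted p = 0.0604). The hcs1 change on xylose was 0.15 (adjusted p = 0.2), and the difference between its 2 changes was not called (-0.20, adjusted p = 0.316).

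The member mcm1 was found through its name alone. Its product is a pheromone receptor transcription factor, not a helicase subunit. It went from 115, 104 and 104 CPM to 97.2, 66.5 and 64.2 on glucose and from 133, 132 and 131 to 86.7, 86.8 and 80.9 on xylose, and fell by 0.50 ± 0.12 and 0.64 ± 0.12 on the log2 scale (adjusted p = 0.00137 and 0.000157).

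Few members differed at the threshold between growing cells on the 2 sugars in the fit of all 12 libraries. In exponential growth 1 of 60 tested members was higher on xylose (mcm2) and 2 were lower (ura6_2 and ade13), while 9.94% of all tested loci were higher and 10.8% lower. The mcm2 gene read 105, 105 and 96.7 CPM on glucose and 123, 133 and 135 on xylose, a difference of 0.35 ± 0.09 (adjusted p = 0.0107). For ura6_2 the difference was -0.92 ± 0.15 (adjusted p = 0.000294), and for ade13 -0.26 ± 0.09 (adjusted p = 0.0409). The call of ade13 was lost with library totals (adjusted p = 0.0656) and in 7 of 12 fits that each left out a library, among them all 6 exponential ones (adjusted p up to 0.152). The call of mcm2 was lost without exponential glucose replicate C or exponential xylose replicate C (adjusted p = 0.0591 and 0.0542). Next in order of adjusted p came pri2 (0.26 ± 0.09, adjusted p = 0.0599). This count depended on the libraries in the fit. It was 1 without exponential glucose replicate C or without exponential xylose replicate C, and 10, 5, 6 and 8 without starved glucose replicate A, B or C or starved xylose replicate A. It was 18 when the exponential libraries were fitted alone and 5 with a DESeq2 Wald test. The share of all tested loci called in those fits is not given here, so these counts cannot be set against it. The authors' deposited table called 5 members, with pri2 and rnr1 added.

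In starvation 21 of 60 tested members were higher on xylose than on glucose and 4 were lower, while 23% of all tested loci were higher and 19.2% lower. Library totals in place of TMM gave 12 higher and 6 lower. The 25 calls in starvation against 3 in growth depended on the joint fit: with the compared groups fitted alone there were 15 in starvation and 18 in growth. For these separate fits the share of all tested loci called is not given here. The replication roles held 16 of the higher members and 2 of the lower ones. The largest difference among called members was that of PHBOTO_004376, with 243 to 267 CPM on xylose against 103 to 127 on glucose (1.14 ± 0.09, adjusted p = 5.75e-08). It was followed by pol1 (0.76 ± 0.07, adjusted p = 1.22e-06), mcm6_2 (0.75 ± 0.08, adjusted p = 2.03e-06) and pri1 (0.74 ± 0.09, adjusted p = 1.61e-05). The other alpha-primase subunits, pol12 and pri2, were both higher by 0.61 (adjusted p = 1.46e-05 and 0.000144). Both ribonucleotide reductase chains were higher on xylose, rnr1 by 0.59 ± 0.11 and rnr2 by 0.64 ± 0.09 (adjusted p = 0.000491 and 5.99e-05). Of the 6 MCM loci 5 were higher, by 0.28 to 0.75. With library totals mcm2, mcm3, mcm6 and mcm7 were not called in this comparison (adjusted p = 0.136, 0.0615, 0.118 and 0.15), while mcm6_2 was. The lower members were PHBOTO_005240 (-0.68 ± 0.10), hcs1 (-0.31 ± 0.11), rfc1 (-0.27 ± 0.08) and ade1 (-0.26 ± 0.10). Left-out libraries ended the calls of mcm2 (starved xylose replicate C, adjusted p = 0.0716) and rfc1 (starved glucose replicate B, adjusted p = 0.0503). Those of hcs1, mcm7 and ade1 were lost in 3, 4 and 9 of 12 such fits (adjusted p up to 0.124, 0.111 and 0.164). Among the higher members ade8, ura3 and ura7 were lost in 2, 8 and 8 of them (adjusted p up to 0.0596, 0.285 and 0.137). The authors' deposited table called 24 members here, 19 higher and 5 lower, and did not call ura3 or ura7.

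The starvation change itself differed between the sugars for 17 of 60 tested members. For 16 the xylose change lay above the glucose change and for 1 it lay below, against 21.7% and 16.5% of all tested loci. Library totals gave 10 above and 4 below. Of the replication roles 10 lay above and none below at the threshold, and of the supply roles 6 lay above. PHBOTO_004376 (0.92 ± 0.12, adjusted p = 2.96e-05) had the smallest adjusted p, followed by PHBOTO_005240, rfa2 and dna2 (0.75 ± 0.12, adjusted p = 0.000223). The alpha-primase subunits pol1, pol12 and pri1 had differences of 0.58, 0.53 and 0.58 (adjusted p = 0.000495, 0.00102 and 0.00217), and pri2 missed the threshold (0.35 ± 0.13, adjusted p = 0.0529). The largest difference among called members was that of ura6_2, at 1.04 ± 0.21 (adjusted p = 0.00125), whose exponential xylose libraries were the lowest. Among the supply genes ade5,7, ade8, ura3 and ura7 had differences of 0.34 to 0.38, and none of these was called with library totals (adjusted p = 0.124, 0.0971, 0.124 and 0.182). Neither pol2 nor PHBOTO_000250 was called there (adjusted p = 0.16 and 0.0921).

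**Figure D4:**
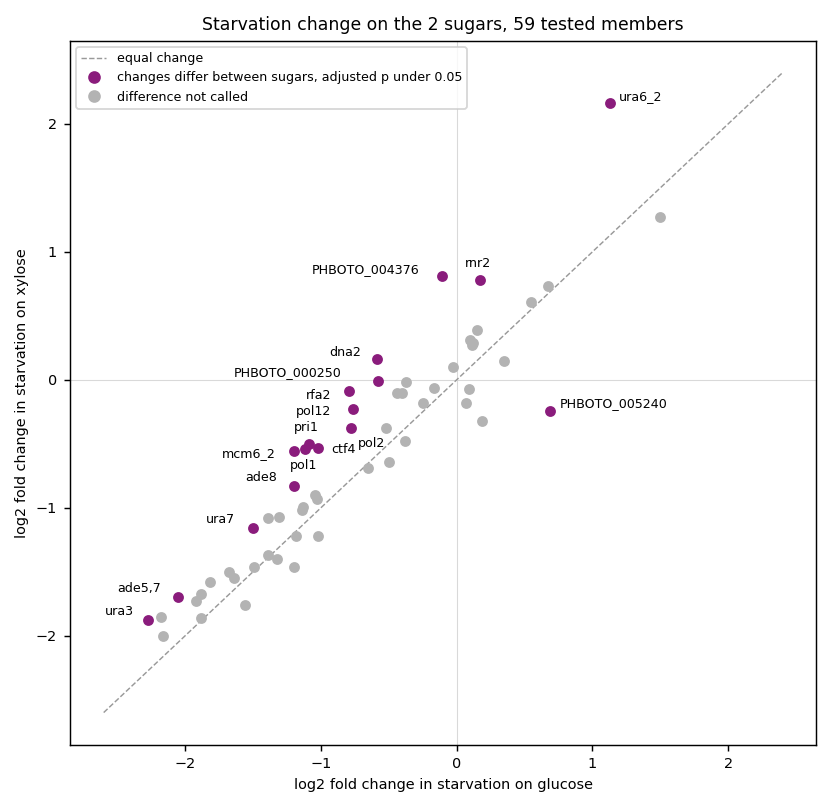
Log2 fold change in starvation on glucose (horizontal axis) and on xylose (vertical axis) for 59 tested members, with the dashed line marking equal change. Purple points are the 17 members whose changes differed between the sugars at an adjusted p under 0.05, of which PHBOTO_005240 lies below the line and the other 16 above it. PHBOTO_000204 is not drawn.

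Genes of the same pathways that the rule did not reach were counted as lists. For comparison, 41.1% of all tested loci fell and 40.1% rose on glucose, and 40.6% fell and 40.6% rose on xylose. Of 24 tested genes of nucleotide supply and salvage, 17 fell and 6 rose on glucose (median -0.69), and 14 fell and 6 rose on xylose (median -0.52). Another 7 of that list were listed at 0. The nucleoside diphosphate kinase ynk1 fell from 797 ± 18.7 to 144 ± 7.70 CPM on glucose (SD, n = 3; -2.47 ± 0.11 on the log2 scale, edgeR adjusted p = 4.68e-12). The largest changes of the list were rises of salvage genes. The uracil phosphoribosyltransferase copy fur1_2, which makes UMP from free uracil, rose by 5.31 ± 0.29 on glucose and 6.60 ± 0.30 on xylose (adjusted p = 4.45e-11 and 6.84e-12), and its partner fur1 by 1.73 ± 0.23 and 3.27 ± 0.24. The starved glucose libraries of fur1_2 spread widely, at 1388 ± 697 CPM (SD, n = 3). Adenine deaminase, aah1, rose from 62.8 to 973 CPM on glucose and from 49.5 to 936 on xylose (3.95 ± 0.12 and 4.24 ± 0.13). Of 7 tested nucleotide breakdown genes, a list that shares aah1, aah1_2, urh1 and urh1_2 with the one before, 5 rose on each sugar and 1 fell on glucose, with medians of 0.77 and 1.62. Purine nucleoside phosphorylase, pnp1, rose by 3.52 ± 0.15 and 4.40 ± 0.16, and allantoicase, dal2, which breaks down a purine product, by 1.84 ± 0.18 and 2.90 ± 0.18.

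Of 16 replication proteins outside the rule, 11 fell and 3 rose on glucose (median -0.69), and 10 fell and 3 rose on xylose (median -0.25). The exonuclease exo1 fell by 1.58 and 1.22, topoisomerase top1 by 1.42 and 1.08, and the flap endonuclease rad27 by 1.27 and 1.34 on the log2 scale. The kinase subunit dbf4, which helps to activate the MCM helicase, fell by 1.28 on glucose and 0.96 on xylose. The sliding clamp pol30, chosen for its place beside the clamp loader after its values were seen, went from 461 ± 4.92 to 240 ± 3.85 CPM on glucose and from 531 ± 24.7 to 384 ± 15.2 on xylose (falls of 0.94 and 0.47, edgeR adjusted p = 4.02e-09 and 1.64e-05). Of 14 tested genes of S phase control and checkpoint, 7 fell and 5 rose on glucose and 5 fell and 5 rose on xylose, with medians of -0.32 and -0.00. These counts lay near the shares of all tested loci, 41.1% lower and 40.1% higher on glucose and 40.6% each way on xylose. The cyclin clb3 fell by 1.43 ± 0.11 on glucose and changed by -0.07 ± 0.10 on xylose (adjusted p = 2.38e-09 and 0.526), a difference of 1.36 ± 0.15 (adjusted p = 4.63e-06). Another cyclin, clb2_2, fell on both, by 1.30 and 1.74. The products of clb3 and clb2_2 are annotated as G2/mitotic-specific cyclins. The DNA-binding protein rfx1, whose budding yeast counterpart represses ribonucleotide reductase genes, rose by 1.33 ± 0.11 on glucose and 1.78 ± 0.11 on xylose (adjusted p = 1.62e-08 and 4.51e-10), and the ubiquitin-conjugating enzyme copy cdc34_2 rose by 1.35 and 1.09.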

How the data were processed

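Per the file headers, the deposited table gave raw counts per locus and library, a signal (each library's counts over its own constant size factor), and for 4 comparisons the authors' log2 fold change and adjusted p-value. Per the submitters' processing notes, bcl2fastq 2.20.0.422, CASAVA, Trim Galore 0.6.1, cutadapt 2.3, HISAT2 2.2.1 and DESeq2 were used; per the labels' protocols, a stranded poly-A kit was used. No source used here gives the read counter, strand setting or genome build, so reads from overlapping, antisense or near-identical loci could be misplaced. Here, edgeR 4.0.16 (R 4.3.3, limma 3.58.1) fitted all 12 libraries with 1 coefficient per group, TMM scaling and filterByExpr (CPM of 0.395 in 3 libraries), and quasi-likelihood tests were adjusted over 5805 loci. Standard errors are the log2 fold change divided by the root of F. The fit was tested on simulated counts. DESeq2 1.42.0, other scalings, filters, library subsets and a replicate term were alternatives. Library depth ran from 15130232 to 32374467 counts. Roles were assigned from names and products. Per-library values were given for the 2 called members with the largest change and the member of each role with the highest mean CPM (which does not rank abundance, as lengths were not used), the 4 smallest adjusted p in each sugar comparison and the interaction, and others where copies or subunits are compared. From each outside list up to 3 called genes with the largest change were named. Members and lists were chosen with earlier results of these data known.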

Additional observations from a re-analysis of the deposited data

Results flagged for a closer look

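The starvation change differed between the sugars for 17 members, and each difference below is the change on xylose less that on glucose on the log2 scale, called by the interaction test in edgeR. Among nucleotide supply genes the differences were 0.35 for ade5,7, 0.37 for ade8, 0.38 for ura3, 0.34 for ura7, 1.04 for ura6_2 and 0.61 for rnr2. Among helicase, single-strand binding and polymerase genes they were 0.64 for mcm6_2, 0.70 for rfa2, 0.92 for PHBOTO_004376, 0.58 for pol1, 0.53 for pol12, 0.40 for pol2 and 0.58 for pri1. The remaining factors gave 0.48 for ctf4, 0.75 for dna2 and 0.57 for PHBOTO_000250. PHBOTO_005240 was the member with a negative difference, at -0.94. The calls of ade5,7, ura3, ura7, pol2 and PHBOTO_000250 were lost in at least 1 of 12 fits that left out a library, with adjusted p up to 0.187, 0.154, 0.13, 0.122 and 0.0535, and the other 12 were kept in all of them.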

How the results depend on the processing

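The counts of members called in starvation, 47 on each sugar, kept their size under DESeq2 size factors, library totals, a DESeq2 Wald test, no filter on low counts and a fit of the compared groups alone. Asking for at least a 2-fold change left 31 on glucose, 23 on xylose, 0 between sugars in growth, 1 between sugars in starvation and 1 for the interaction. Over all 5805 tested loci it left 2587, 2539, 247, 320 and 541 in the same order. Leaving out 1 library in turn gave 46 to 49 on glucose, 44 to 48 on xylose, 1 to 10 between sugars in growth, 21 to 27 between sugars in starvation and 12 to 20 for the interaction. Between sugars in growth the DESeq2 Wald test gave 5 and the exponential groups alone 18, and between sugars in starvation the starved groups alone gave 15. The joint fit pooled the spread of all 4 groups, and replicates differed more in starved than in exponential groups. Whether that gave these counts was not tested. Library totals put the median of all tested loci at -0.12 on glucose, -0.21 on xylose and -0.12 between starved groups, against -0.02, 0.00 and -0.00 with TMM. In the starvation comparisons they reversed the sign of mip1 (-0.01) and rfc1 (-0.02) on glucose and of dna2 (-0.06), hcs1 (-0.06) and dpb2 (-0.11) on xylose, none of them called there with either scaling. Signs also differed between scalings for 1, 15 and 9 members between sugars in growth, between sugars in starvation and for the interaction, with 0 of them called under either scaling. The mip1 change on xylose ranged from -0.17 to 0.02 over the leave-outs. With a replicate block the counts were 48, 46, 3, 25 and 16 in the same order, and orc1 was called lower on glucose (-0.26, adjusted p = 0.0448). The labels do not say what the letters share, so they were not taken to pair the cultures in the main fit. Over 18 pairs of same-lettered libraries the deviations from the group means correlated at -0.12 to 0.171, with 2 above 0.1. Pairs with different letters ran from -0.168 to 0.114. With 3 replicates per group these values cannot show whether the cultures were paired. Of 980 single-gene values, 948 kept direction and call. They cover only members picked for a large change, a high level or a small adjusted p, which favours stable results. Over all calls, 2 of 47 on glucose and 4 of 47 on xylose were lost in at least 1 leave-out. The same held for 2 of 3 between sugars in growth, 8 of 25 between sugars in starvation and 5 of 17 for the interaction. The shallowest libraries were those of starved glucose. Wide errors were seen for PHBOTO_000204, which had very few reads, and for psf2, whose starved replicates spread widely.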
